A study of Mus musculus with 15 samples.

Results

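The genes that link blood glucose to islet cell excitability were compared between alpha, beta and delta cells of the mouse. They were the glucose transporter genes *Slc2a1* (GLUT1), *Slc2a2* (GLUT2) and *Slc2a3* (GLUT3), the glucose 6-phosphatase genes *G6pc2* and *G6pc3*, and the KATP channel subunit genes *Kcnj11* (Kir6.2) and *Abcc8* (SUR1). These 7 members of the pathway were picked by symbol out of the 38283 genes of the expression table, and each symbol had 1 row. All 7 passed the filter on low values, a mean above 1 FPKM in at least 1 cell type, as did 14405 genes in all. FPKM scale the reads of a gene by the length of its transcripts and by the reads mapped in that sample, so that levels of different genes within a sample can be set side by side per length.

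RNA-seq was done on 15 samples of flow-sorted islet cells from C57BL/6 mice. Glu-Venus mice, in which the proglucagon promoter drives the fluorophore Venus, gave the alpha cells (n = 5) and, as Venus-negative cells gated on scatter and autofluorescence, the beta cells (n = 4). The delta cells (n = 6) were sorted from mice with the genotype Sst-CreXROSA26EYFP/EYFP, in which Cre under the somatostatin promoter switches on EYFP. The delta cells therefore differ from the others in mouse line and reporter as well as in cell type, and these cannot be told apart. No group was treated. Every sample was sorted from islets pooled from several mice, so p-values measure the spread between pools. In bulk samples, fewer cells of a type and less RNA per cell cannot be told apart.

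As background, glucose enters islet cells by facilitative transporters of the SLC2 family. GLUT2 has a low affinity and a high capacity for glucose, whereas GLUT1 and GLUT3 have a high affinity. Glucose is then phosphorylated to glucose 6-phosphate, and an islet glucose 6-phosphatase encoded by *G6pc2* can reverse that step, which makes it a brake on glucose sensing in beta cells. *G6pc3* encodes a phosphatase found in most tissues. Metabolism of glucose raises ATP relative to ADP, which closes KATP channels, built of pore-forming Kir6.2 and the sulfonylurea receptor SUR1. Closure depolarises the membrane, opens voltage-gated calcium channels and starts hormone release. Beta, alpha and delta cells are all known to carry KATP channels.

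Both genes with far higher levels in beta cells are shown first with the sequence upstream of their transcription start, together with *Slc2a1*, whose level was highest in delta cells. Promoter sequences came from RefSeq (GRCm38.p6) and matched 4 of the 7 members. They are given 5′ to 3′ on the + strand. Capitals mark TAAT on either strand (TAAT or ATTA), the core of many homeodomain binding sites, and CANNTG, the E-box core, which reads the same on both strands. The 250 bases before the *Slc2a2* start are chr3:28697653-28697902. The *G6pc2* window is chr2:69219699-69219948, the more downstream of its 2 RefSeq starts, and lies within the annotated span of the gene. The *Slc2a1* window of 216 bases is chr4:119108495-119108710, which leaves out the bases that the annotation places in the first exon.
Slc2a2: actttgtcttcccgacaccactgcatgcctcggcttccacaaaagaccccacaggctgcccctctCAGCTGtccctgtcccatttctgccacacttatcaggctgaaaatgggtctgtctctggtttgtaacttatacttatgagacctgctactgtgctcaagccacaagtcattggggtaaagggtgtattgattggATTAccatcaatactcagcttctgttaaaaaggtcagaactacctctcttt
G6pc2: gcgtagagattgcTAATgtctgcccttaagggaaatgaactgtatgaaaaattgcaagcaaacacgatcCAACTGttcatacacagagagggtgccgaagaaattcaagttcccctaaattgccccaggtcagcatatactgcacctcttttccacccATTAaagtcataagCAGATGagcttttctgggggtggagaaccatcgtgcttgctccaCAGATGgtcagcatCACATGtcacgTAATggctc
Slc2a1: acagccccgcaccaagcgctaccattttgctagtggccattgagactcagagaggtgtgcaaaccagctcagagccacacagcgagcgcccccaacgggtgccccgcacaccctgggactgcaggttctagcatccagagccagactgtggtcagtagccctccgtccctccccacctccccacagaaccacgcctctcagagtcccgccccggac

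The *Slc2a2* window held 1 TAAT match and 1 CANNTG match. The *G6pc2* window held 3 TAAT and 4 CANNTG matches. Among 32851 RefSeq windows of 250 bases, 54.9% held at least 1 TAAT match and 66.2% at least 1 CANNTG match. At least 3 TAAT matches occurred in 17.3% of them and at least 4 CANNTG matches in 3.8%. The other *G6pc2* start (chr2:69210823-69211072) had 1 match of each. In the *Slc2a1* window neither string occurred, against 52.0% (TAAT) and 61.6% (CANNTG) of all windows of 216 bases with a match. Letters alone do not show that a factor binds.

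The labels were checked against defining markers. Alpha cells had the glucagon gene *Gcg* at 273077 ± 72015 FPKM (SD, n = 5). Beta cells had the insulin gene *Ins2* at 295241 ± 252306 FPKM (SD, n = 4), and delta cells had the somatostatin gene *Sst* at 163268 ± 77761 FPKM (SD, n = 6). Endothelial cells carry much *Slc2a1* in other tissues. The sum of their 4 markers was 0 to 0.151 FPKM in alpha, 0 to 0.0902 in beta and 0.15 to 0.996 in delta cells, and *Pecam1*, *Cdh5*, *Kdr* and *Plvap* were each under 1 FPKM in every sample. The sum of 3 red cell markers reached at most 4.38 FPKM and that of 4 immune markers at most 2.79 FPKM. Summed Schwann cell markers reached 6.94 FPKM in alpha, 3.52 in beta and 9.21 in delta cells. Summed stellate and pericyte markers ran from 1.77 to 4.94 FPKM in alpha cells and reached 0.908 in beta and 0.988 in delta cells. Summed acinar markers ran from 18.3 to 105 FPKM in delta cells, from 0.0651 to 27.3 in alpha cells and from 0.0136 to 6.91 in beta cells, with *Amy2a5* listed at 0 in every sample. In delta cells *Cela1* was at 17.9 to 95.2 FPKM, and the medians of *Cpa1*, *Cel* and *Pnlip* were 1.83, 0.964 and 1.87 FPKM. In delta sample 4, which had the highest sum, these 4 genes were at 48.4, 17.9, 19.2 and 19.3 FPKM. Summed duct markers ran from 15.3 to 160 FPKM in alpha cells, from 0.8 to 18.2 in beta cells and from 7.35 to 84.1 in delta cells. They were mostly *Spp1*, except in beta sample 1, where *Krt19* was at 0.460 and *Spp1* at 0.340 FPKM. *Krt19* was listed at 0 in all delta cells and *Cftr* in all alpha and beta cells. *Ppy*, the pancreatic polypeptide gene, ran from 17728 to 41392 FPKM in alpha cells and from 10857 to 48600 in delta cells, against at most 98.1 in beta cells. Their part in the results was not tested. The FPKM of 85 genes for ribosomal proteins, added up per sample, split the samples into 2 sets. The total was above 50000 in 6 samples (alpha 1 to 3, beta 2, delta 1 and 2) and below that in the other 9, and values within sets are given where they bear on a gene.

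The 7 genes had 3 broad patterns. *Slc2a2* and *G6pc2* were far higher in beta cells than in either other type. *Slc2a1* and *Slc2a3* were highest in delta cells, and *Slc2a3* was nearly missing from beta cells. *G6pc3* and the KATP channel genes had means within 3-fold of each other across cell types, with *Kcnj11* higher in delta than in beta cells. With limma on log2(FPKM + 1), adjusted by Benjamini-Hochberg over all 14405 genes, differences with an adjusted p under 0.05 were called. Between beta and alpha cells 2 members were higher and 1 lower in beta cells, where 7.66% of all genes tested were called (2.84% higher and 4.82% lower). Between delta and alpha cells 2 members were higher in delta cells and no member was lower, where 6.81% of all genes were called (5.33% higher and 1.48% lower). Between delta and beta cells 3 members were higher and 2 lower in delta cells, against 14.7% of all genes (11.7% higher and 2.99% lower). After median-ratio scaling these shares of all genes were 7.57% higher and 6.81% lower for beta minus alpha, 5.01% and 2.37% for delta minus alpha, and 9.57% and 9.0% for delta minus beta cells. Values on this scale understate the change of a gene with low FPKM. The members' median differences were -0.19, 1.07 and 1.38 in that order of comparisons, beside -0.13, 0.13 and 0.30 over all genes tested.

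**Figure D1:**
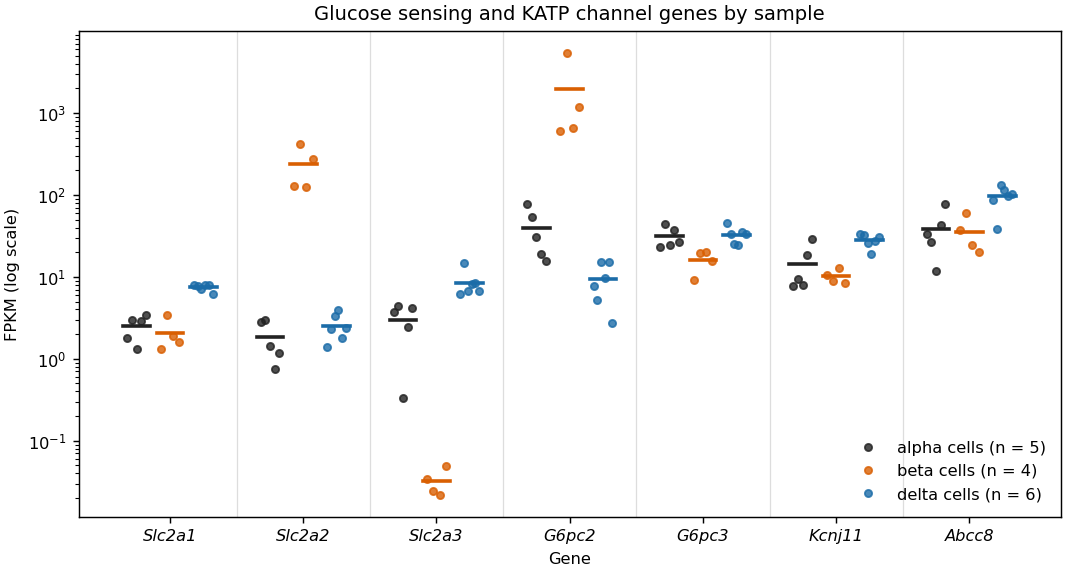
Each point is the FPKM of 1 gene in 1 sample on a log axis, with alpha cells in black, beta cells in orange and delta cells in blue, and horizontal bars are group means. *Slc2a2* and *G6pc2* stand far higher in the 4 beta cell samples, whereas *Slc2a3* lies under 0.05 FPKM there, and the 6 delta cell samples lie above all others for *Slc2a1* and *Slc2a3*.

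Of the glucose transporters, *Slc2a2* (ENSMUSG00000027690, chr3:28697903-28731359, + strand) was the most restricted to beta cells. Its level was 128, 416, 126 and 273 FPKM in beta samples 1 to 4. In alpha samples 1 to 5 it was 2.81, 2.98, 1.45, 0.753 and 1.19 FPKM. In delta samples 1 to 6 it was 1.38, 2.28, 3.36, 3.95, 1.80 and 2.38 FPKM. All beta cell samples thus lay above all others, while alpha and delta cells overlapped. The mean of 236 ± 139 FPKM (SD, n = 4) in beta cells was 128-fold that in alpha cells and 93.3-fold that in delta cells. The log2 difference was 6.27 (SE 0.408, adjusted p = 1.32e-07) for beta minus alpha cells, the 8th highest of the genes tested, and -5.93 (SE 0.392, adjusted p = 9.78e-08) for delta minus beta cells. Delta and alpha cells were 0.34 apart (95% CI -0.44 to 1.12, adjusted p = 0.713), which did not pass.

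Low levels of *Slc2a2* and of other beta cell genes were measured in alpha and delta cells. *Slc2a2* in alpha cells averaged 0.779% ± 0.424 (SD, n = 5) of its beta cell mean, beside 1.87% ± 0.782 for *Ins2*, 2.52% ± 1.20 for *Ins1* and 0.907% ± 0.625 for *Ucn3*, the urocortin 3 gene. In delta cells *Slc2a2* was at 1.07% ± 0.408 (SD, n = 6), *Ins2* at 1.95% ± 0.432, *Ins1* at 2.08% ± 0.649 and *Ucn3* at 1.23% ± 0.389. *Ins2* rested on beta sample 3, without which it was at 3.06% ± 1.28 in alpha and 3.19% ± 0.706 in delta cells, and *Slc2a2* at 0.674% ± 0.367 and 0.927% ± 0.353. The part of beta cell RNA in these low levels was not tested.

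**Figure D2:**
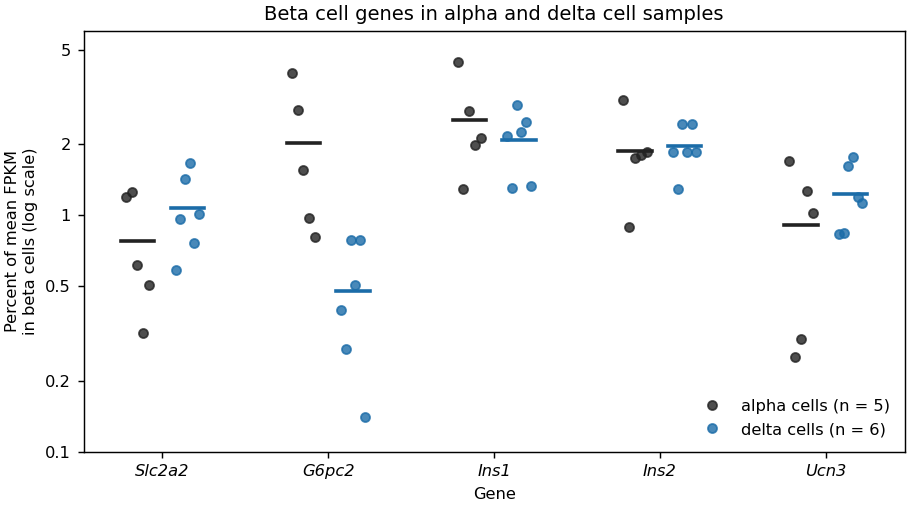
Points give the FPKM of 5 genes in each alpha (black, n = 5) and delta (blue, n = 6) cell sample as a percent of the gene's mean in beta cells, on a log axis, and bars are group means. *Slc2a2*, *Ins1*, *Ins2* and *Ucn3* lie between 0.252% and 4.46% in both cell types, and *G6pc2* reaches 0.140% in delta cells.

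*Slc2a1* (ENSMUSG00000028645, chr4:119108711-119137983, + strand) was low in all 3 cell types and highest in delta cells. Its FPKM was 8.06, 7.68, 7.01, 7.95, 7.92 and 6.24 in delta samples 1 to 6. In alpha samples 1 to 5 it was 1.81, 3.00, 1.33, 2.88 and 3.44. In beta samples 1 to 4 it was 1.31, 3.45, 1.92 and 1.62. The lowest delta cell sample was above the highest of the alpha and beta cells, and the spread among delta cells was the smallest of any member in any cell type, with a CV of 9.55%. The mean in delta cells, 7.48 ± 0.714 FPKM (SD, n = 6), was 3.00-fold that in alpha and 3.60-fold that in beta cells. Delta cells were higher than alpha cells by 1.32 (SE 0.256, adjusted p = 0.00344) and than beta cells by 1.50 (SE 0.273, adjusted p = 0.0014) on the log2 scale. Beta minus alpha was -0.19 (95% CI -0.79 to 0.41, adjusted p = 0.741). Within the 9 samples of the lower ribosomal set, delta minus alpha was 0.99 (adjusted p = 0.0806) and was no longer called. An antisense gene, *Gm12868*, shares 105 exon bases with *Slc2a1*, and reads of the 2 cannot be told apart here.

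*Slc2a3* (ENSMUSG00000003153, chr6:122727809-122801640, - strand) differed in all 3 comparisons. Delta samples 1 to 6 had 6.10, 14.6, 6.66, 8.28, 8.33 and 6.68 FPKM. Alpha samples 1 to 5 had 3.69, 4.35, 0.329, 2.45 and 4.12 FPKM, alpha sample 3 being far under the rest. Beta samples 1 to 4 had 0.0346, 0.0243, 0.0220 and 0.0492 FPKM. The 3 cell types did not overlap, in the order delta, alpha, beta. The beta cell mean was 1.09% ± 0.415 (SD, n = 4) of the alpha cell mean, and the same beta cells had *Gcg* at 0.233% ± 0.289 (a mean of 636 FPKM, and 242 FPKM without beta sample 2) and *Irx1*, an alpha cell transcription factor gene, at 0.0336% ± 0.0231 of the alpha cell mean.

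The log2 differences of *Slc2a3* were -1.79 (SE 0.385, adjusted p = 0.00875) for beta minus alpha, 1.34 (SE 0.348, adjusted p = 0.0251) for delta minus alpha and 3.14 (SE 0.371, adjusted p = 3.07e-05) for delta minus beta cells. On the ratio of mean FPKM, which adds no pseudocount, *Slc2a3* in delta cells was 260-fold that in beta cells and 2.83-fold that in alpha cells. The fold over beta cells divides by a mean of 0.0325 FPKM in samples of unknown depth, so its size is uncertain. The call between delta and alpha cells was near the threshold. It was lost without alpha sample 4 (adjusted p = 0.0519) or without delta sample 2, 4 or 5 (adjusted p = 0.052, 0.0534 and 0.0531), and within the lower ribosomal set the difference was 1.01 (adjusted p = 0.0917). The same call was also lost with a pseudocount of 0.1, with other filters on low values and with only the 2 cell types fitted. When only alpha and beta cells were fitted, the beta minus alpha difference had an adjusted p of 0.0615.

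*Slc2a1* in alpha cells averaged 33.3% ± 11.8 (SD, n = 5) and *Slc2a3* 35.4% ± 19.6 of the delta cell mean, from 17.7% to 46.0% and from 3.9% to 51.6%. In the same alpha cells *Sst* was at 0.992% ± 0.323 and *Hhex*, a delta cell transcription factor gene, at 0.991% ± 1.41 of it, from 0.698% to 1.49% and from 0.0672% to 3.5%. The mean of *Hhex* rested on alpha sample 2, at 2.55 FPKM against a median of 0.334 FPKM in alpha cells. The part of delta cell RNA in the alpha cell levels was not tested.

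As shares of the summed FPKM of the 3 transporter genes, cell types differed in which gene led. *Slc2a2* made up 98.5% to 99.4% of that sum in beta cells, 12.4% to 46.7% in alpha cells and 8.88% to 19.7% in delta cells. The order of alpha and delta cells turned between the ribosomal sets, with 13.0% in alpha and 16.2% in delta cells of the lower set and 36.5% and 9.08% in those of the higher set. *Slc2a1* took 36.0% ± 10.4 (SD, n = 5) in alpha and 41.4% ± 6.68 (SD, n = 6) in delta cells, and *Slc2a3* took 36.9% ± 14.9 and 44.8% ± 7.69. In delta cells the levels of *Slc2a1* and *Slc2a3* were thus within their spread of each other. The sum itself ran from 128 to 420 FPKM in beta cells, from 15.3 to 24.6 in delta cells and from 3.11 to 10.3 in alpha cells, with no overlap. These are descriptions within samples and were not tested.

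**Figure D3:**
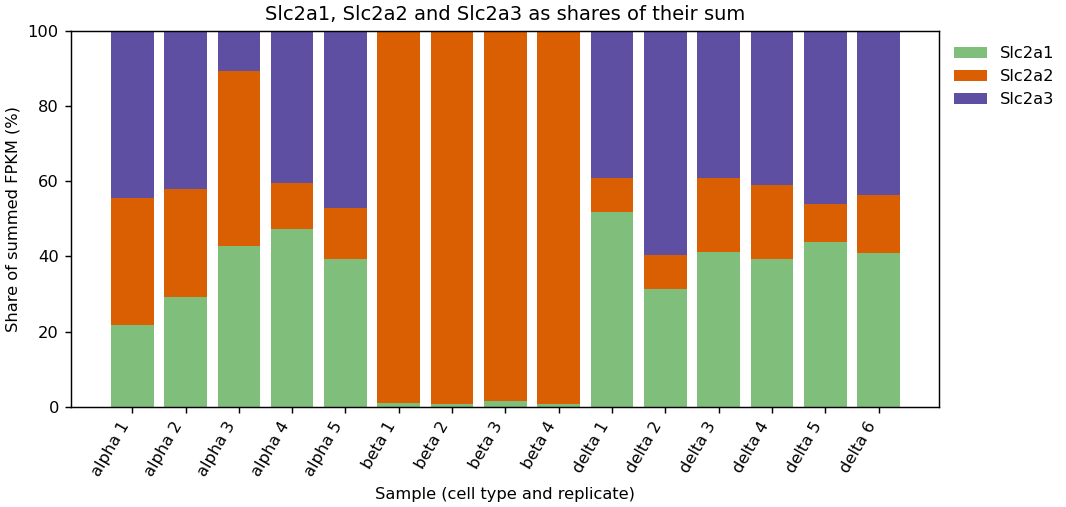
Stacked bars give *Slc2a1* (green), *Slc2a2* (orange) and *Slc2a3* (purple) as percent of their summed FPKM in each of the 15 samples. *Slc2a2* fills at least 98.5% of every beta cell bar and at most 46.7% of any alpha and 19.7% of any delta cell bar.

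Of the glucose 6-phosphatase genes, *G6pc2* (ENSMUSG00000005232, chr2:69211073-69227841, + strand) was the most abundant member in beta cells, where its mean was the 40th highest of the whole table. Beta samples 1 to 4 had 596, 5341, 658 and 1170 FPKM, so that beta sample 2, in the higher ribosomal set, was far above the rest. Alpha samples 1 to 5 had 77.4, 54.4, 30.3, 18.8 and 15.6 FPKM. Delta samples 1 to 6 had 7.70, 5.27, 15.2, 9.80, 15.2 and 2.71 FPKM. The 3 cell types did not overlap, in the order beta, alpha, delta. The mean in beta cells was 1941 ± 2281 FPKM (SD, n = 4), 49.4-fold that in alpha cells (39.3 ± 26.2 FPKM, SD, n = 5) and 208-fold that in delta cells (9.31 ± 5.14 FPKM, SD, n = 6). Without beta sample 2 the beta cell mean was 808 FPKM, and these folds were 20.6 and 86.7.

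The log2 difference of *G6pc2* was 5.21 (SE 0.673, adjusted p = 0.000106) for beta minus alpha cells. For delta minus beta cells it was -7.10 (SE 0.648, adjusted p = 2.06e-06), and no gene among the 14405 had a lower value. Without beta sample 2 these were 4.51 and -6.40 and both remained called. Delta minus alpha was -1.89 (95% CI -3.18 to -0.61, adjusted p = 0.0813) and was not called, although every delta cell sample was under every alpha cell sample. It was called after median-ratio scaling (-2.05, adjusted p = 0.0115) or quantile normalisation (-1.95, adjusted p = 0.0112), in the fit of those 2 cell types alone (adjusted p = 0.0378) and without beta sample 2 (adjusted p = 0.0248). Within the lower ribosomal set it was -0.84 (adjusted p = 0.64). *G6pc2* in alpha cells averaged 2.02% ± 1.35 and in delta cells 0.480% ± 0.265 of the beta cell mean, beside 1.87% and 1.95% for *Ins2* there. Without beta sample 2, an alternative added after seeing the data, *G6pc2* was at 4.86% ± 3.24 (SD, n = 5) and 1.15% ± 0.637 (SD, n = 6), and *Ins2* at 1.95% and 2.03%. Without beta sample 3, *G6pc2* was at 1.66% and 0.393% and *Ins2* at 3.06% and 3.19%, so that their order in alpha cells turned. The part of beta cell RNA in these levels was not tested.

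*G6pc3* (ENSMUSG00000034793, chr11:102189620-102194081, + strand) varied far less. Alpha samples 1 to 5 had 23.0, 44.1, 24.5, 37.8 and 26.3 FPKM. Beta samples 1 to 4 had 9.03, 19.7, 20.1 and 15.5 FPKM. Delta samples 1 to 6 had 44.9, 33.1, 25.5, 24.4, 35.6 and 33.6 FPKM. Every beta cell sample was under every alpha and delta cell sample, which was so for 3.26% of all genes tested, yet no comparison of *G6pc3* passed. Beta minus alpha was -0.92 (95% CI -1.66 to -0.19, adjusted p = 0.12) and delta minus beta 1.02 (95% CI 0.31 to 1.72, adjusted p = 0.0516). The latter was called in some other fits, such as that without a filter on low values (adjusted p = 0.0376), and without beta sample 2 or 3 (adjusted p = 0.0342 and 0.044). Delta minus alpha was 0.09 (95% CI -0.57 to 0.76, adjusted p = 0.939), and its sign turned to -0.07 after median-ratio scaling.

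The share of *G6pc2* in the summed FPKM of both phosphatase genes did not overlap between beta and the other cells. It was 97.0% to 99.6% in beta cells, 33.3% to 77.1% in alpha cells and 7.45% to 37.4% in delta cells. Alpha samples 4 and 5, at 33.3% and 37.3%, were within the range of delta cells. Both belonged to the lower ribosomal set, in which alpha cells averaged 35.3% and delta cells 25.8%, whereas in the higher set they averaged 62.5% and 14.2%.

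The KATP channel genes *Kcnj11* (ENSMUSG00000096146, chr7:46093953-46100764, - strand) and *Abcc8* (ENSMUSG00000040136, chr7:46104523-46180033, - strand) are neighbours on chromosome 7 with 3758 bases between them. *Kcnj11* is annotated with 1 exon in its longest coding transcript, and *Abcc8* with 39. Both genes were detected in all 15 samples. *Kcnj11* ranged from 7.83 to 32.9 FPKM and *Abcc8* from 12.0 to 133 FPKM over all samples, and for each the mean was highest in delta cells.

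*Kcnj11*, which encodes the channel pore, was at 7.83, 9.48, 7.95, 18.4 and 29.0 FPKM in alpha samples 1 to 5. In beta samples 1 to 4 it was at 10.6, 8.94, 12.9 and 8.34 FPKM. In delta samples 1 to 6 it was at 32.9, 32.7, 25.9, 19.1, 27.6 and 30.8 FPKM. Delta cells lay above all beta cells, whereas alpha cells overlapped with both. Delta minus beta was 1.38 (SE 0.370, adjusted p = 0.0196), and the mean of 28.2 ± 5.26 FPKM (SD, n = 6) in delta cells was 2.76-fold that of 10.2 ± 2.06 FPKM (SD, n = 4) in beta cells. This call was lost after median-ratio scaling (0.96, adjusted p = 0.16), after quantile normalisation (1.15, adjusted p = 0.0816) and without beta sample 4 (adjusted p = 0.0634). Delta minus alpha was 1.07 (95% CI 0.33 to 1.80, adjusted p = 0.0867) and beta minus alpha -0.31 (95% CI -1.12 to 0.51, adjusted p = 0.677), and neither passed.

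The alpha cell values of *Kcnj11* went with the ribosomal set. Alpha samples 1 to 3, of the higher set, averaged 8.42 FPKM and alpha samples 4 and 5 averaged 23.7 FPKM. Within the lower set, delta cells were at 25.9 FPKM and delta minus alpha was 0.13 (adjusted p = 0.943), while delta minus beta was 1.21 (adjusted p = 0.0244) and beta minus alpha -1.07 (adjusted p = 0.105). Within the higher set, delta cells averaged 32.8 FPKM against 8.42 in alpha cells. Without alpha sample 5, delta minus alpha was 1.35 (adjusted p = 0.0153) and was called.

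*Abcc8*, which encodes the regulatory subunit that sulfonylurea drugs bind, was at 32.9, 26.9, 12.0, 42.9 and 76.9 FPKM in alpha samples 1 to 5. Beta samples 1 to 4 had 37.0, 60.4, 24.7 and 20.1 FPKM. Delta samples 1 to 6 had 86.6, 38.1, 133, 116, 96.4 and 103 FPKM. Delta sample 2 was far under the rest of its group, and the groups overlapped in every comparison. The mean in delta cells, 95.6 ± 32.5 FPKM (SD, n = 6), was 2.50-fold that in alpha and 2.69-fold that in beta cells, yet the differences of 1.44 (95% CI 0.44 to 2.43, adjusted p = 0.0882) and 1.43 (95% CI 0.37 to 2.49, adjusted p = 0.0666) were not called. Without delta sample 2 they were 1.68 and 1.67 and were called (adjusted p = 0.0364 and 0.0318). Delta minus beta was also called without beta sample 2 (1.72, adjusted p = 0.0312) and without alpha sample 3 (1.43, adjusted p = 0.0418), and within the lower ribosomal set it was 2.04 (adjusted p = 0.00409). Without alpha sample 5, delta minus alpha was 1.74 (adjusted p = 0.0319), and within the lower ribosomal set, in which alpha cells averaged 59.9 FPKM against 23.9 in the higher set, it was 0.94 (adjusted p = 0.278). Beta minus alpha was 0.00 (95% CI -1.10 to 1.10, adjusted p = 1), and was -1.09 (adjusted p = 0.13) within the lower ribosomal set.

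The ratio of *Abcc8* to *Kcnj11* within a sample was above 1 in all 15 samples. Its mean was 2.70 ± 0.979 (SD, n = 5) for alpha, 3.64 ± 2.18 (SD, n = 4) for beta and 3.64 ± 1.76 (SD, n = 6) for delta cells, with overlap throughout. The extremes were beta sample 2 at 6.76 and delta sample 2 at 1.16. Both values are per length, but the RNA was amplified before sequencing, and the effect of amplification on a ratio between genes was not tested.

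**Figure D4:**
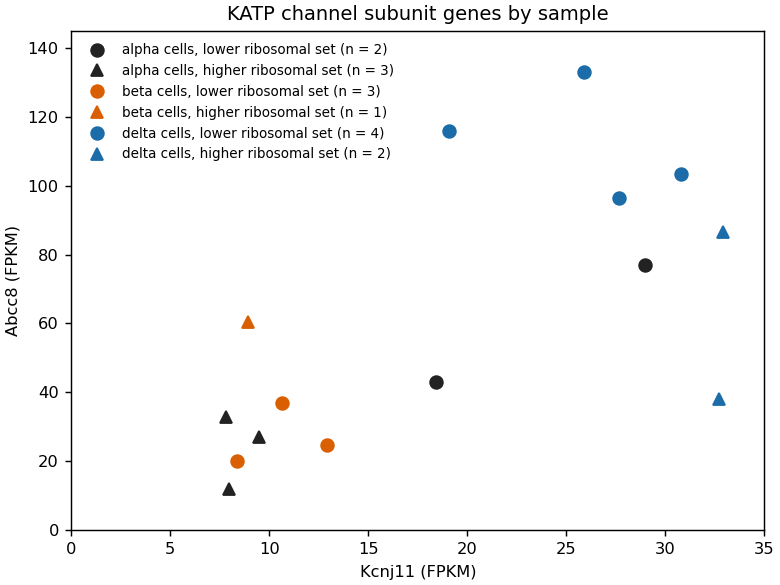
Each point is a sample, with *Kcnj11* FPKM on the horizontal and *Abcc8* FPKM on the vertical axis, coloured by cell type, with triangles for the 6 samples of the higher ribosomal set and circles for the other 9. Delta cells lie at 19.1 to 32.9 FPKM of *Kcnj11* and beta cells at 8.34 to 12.9, while alpha cells of the higher set lie at 7.83 to 9.48 and those of the lower set at 18.4 and 29.0.

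**Figure D5:**
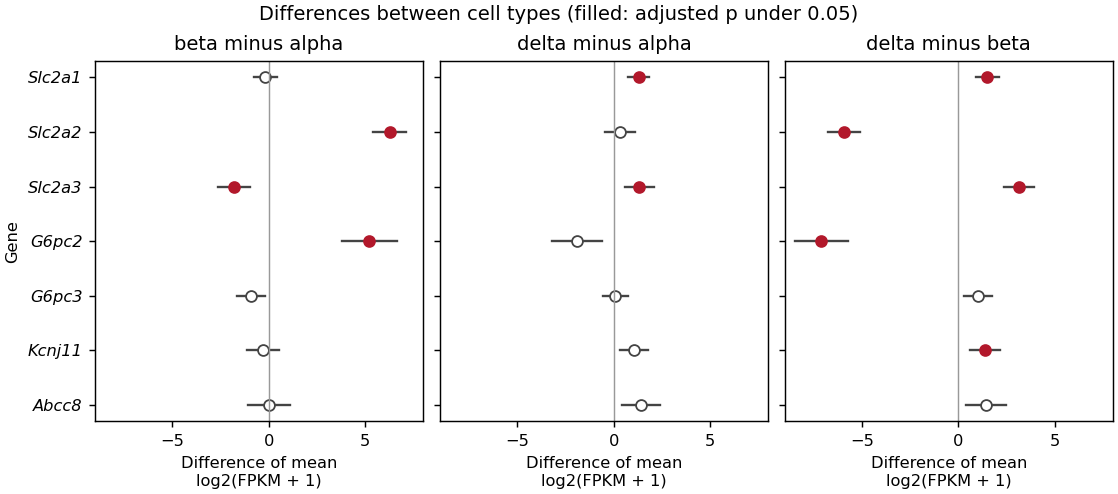
Points are differences in mean log2(FPKM + 1) from the limma fit for 7 genes and 3 comparisons, lines are 95% confidence intervals, and filled points have an adjusted p under 0.05. Beta cells differ most in *Slc2a2* and *G6pc2*, *Slc2a3* is filled in all 3 panels, and *G6pc3* and *Abcc8* in none.

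Across the 3 cell types, the limma F-test called 5 of the 7 members, against 16.0% of all genes tested. These were *Slc2a1* (adjusted p = 0.00113), *Slc2a2* (4.99e-08), *Slc2a3* (6.77e-05), *G6pc2* (3.93e-06) and *Kcnj11* (0.0273). The call of *Kcnj11* was lost without beta sample 1 or 4 and without delta sample 1, 2, 3, 5 or 6 (adjusted p of at most 0.0641), and after median-ratio scaling (0.179) or quantile normalisation (0.103). *Abcc8* (adjusted p = 0.0592) and *G6pc3* (adjusted p = 0.0849) did not pass. In beta cells 2 members, *Slc2a2* and *G6pc2*, were above every alpha and delta cell sample, which held for 1.24% of all genes. In delta cells 2 members, *Slc2a1* and *Slc2a3*, were above every other sample, which held for 3.03% of all genes. *G6pc2* in delta cells was below every other sample, as were 0.417% of all genes.

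The other genes of the pathway were taken from 6 lists of 35 genes in all, of which 19 passed the filter on low values. Between beta and alpha cells limma called 0 of the 19, against 7.66% of all genes. An unadjusted p under 0.05 was found for 4 of the 19 in beta minus alpha, 7 in delta minus alpha and 9 in delta minus beta. Over all 14405 genes tested it was found for 3303, 2411 and 4084 in that order. Between delta and alpha cells 1 was called, against 6.81% of all genes, and between delta and beta cells 5, all higher in delta cells, against 11.7% of all genes called higher in that last comparison. The median difference over the 19 was -0.06, 0.53 and 0.70 for beta minus alpha, delta minus alpha and delta minus beta. Over all genes tested these medians were -0.13, 0.13 and 0.30. Some of the 19, *Slc5a1* and *Hk1* among them, passed the filter only through a single cell type where they are high. Such genes enter these counts and medians, which are therefore descriptions only.

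Among the other transporters, *Slc2a10* (GLUT10) was higher in delta cells at 3.43 ± 1.22 FPKM (SD, n = 6) than in beta cells at 0.114 ± 0.191 FPKM (SD, n = 4), by 1.96 on the log2 scale (adjusted p = 0.000568). That beta cell mean rested on beta sample 3 at 0.399 FPKM, the other beta cell samples being at 0 to 0.0431 FPKM. *Slc5a1*, the sodium-glucose cotransporter SGLT1, averaged 1.50 ± 0.983 FPKM (SD, n = 6) in delta cells. It was 0.0135 ± 0.0185 FPKM (SD, n = 5) in alpha cells and 0.106 ± 0.0877 FPKM (SD, n = 4) in beta cells, 1.22 (adjusted p = 0.00966) and 1.10 (adjusted p = 0.0174) lower than in delta cells on the log2 scale. *Slc5a1* passed the filter on low values only through delta cells, the group where it is high. The filter thus favoured a difference, and the calls of *Slc5a1*, counted above, support nothing. *Slc2a5*, the fructose transporter GLUT5, was named after its values were seen. It was at 35.2 to 177 FPKM in every sample, above the sum of *Slc2a1*, *Slc2a2* and *Slc2a3* in each alpha and delta cell sample, and no comparison of it passed. *Slc2a4*, the insulin-regulated GLUT4, was listed at 0 in all samples.

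In the list of glucose phosphorylation, 2 genes (*Hk1* and *Adpgk*) passed the filter on low values and limma called 0 of them in any comparison. *Adpgk* had an unadjusted p under 0.05 in none. *Hk1*, hexokinase 1, was listed at 0 in all 4 beta cell samples and ran from 0.206 to 5.45 FPKM in alpha cells and from 0 to 2.25 FPKM in delta cells. *Hk1* passed the filter on low values only through alpha cells, so no difference from them is given. *Hk2* was listed at 0 in every sample of alpha and beta cells and was at most 0.0188 FPKM in delta cells. *Hk1* shares 157 exon bases with the antisense gene *Hk1os*.

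Of the genes for hydrolysis of glucose 6-phosphate in the endoplasmic reticulum, *G6pc*, the liver and kidney enzyme, was listed at 0 in all 15 samples. *Slc37a4*, which carries glucose 6-phosphate into that compartment, averaged 5.06 ± 3.04 FPKM (SD, n = 5) in alpha, 9.32 ± 12.7 FPKM (SD, n = 4) in beta and 4.33 ± 3.02 FPKM (SD, n = 6) in delta cells, and no comparison passed. Its levels went with the ribosomal set. In the higher set it averaged 6.96 FPKM in alpha and 8.02 FPKM in delta cells, and the only beta cell sample there, beta sample 2, had 28.4 FPKM. In the lower set it averaged 2.21, 2.97 and 2.49 FPKM in alpha, beta and delta cells.

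Of the 8 first users of glucose 6-phosphate, 3 were called higher in delta than in beta cells, against 11.7% of all genes. An unadjusted p under 0.05 was found for 5 of the 8 in that comparison, and for 4084 of all 14405 genes tested. *Gpi1*, the isomerase of glycolysis, was at 27.5 ± 7.82 FPKM (SD, n = 6) in delta and 9.62 ± 4.57 FPKM (SD, n = 4) in beta cells (1.47, adjusted p = 0.0137). *Pfkl*, a phosphofructokinase subunit, was at 7.08 ± 1.00 and 1.75 ± 0.902 FPKM (1.60, adjusted p = 0.00584). *Pfkm*, another such subunit, was at 6.44 ± 2.53 and 2.45 ± 1.07 FPKM (1.09, adjusted p = 0.0424). These calls are from the fit without rescaling, and those under other scalings are not reported here. Median-ratio scaling moved the median of all genes by -0.28 in this comparison. *Gpi1* and *Pfkm* share exon bases with annotated non-coding genes, and reads of these cannot be told apart. The paralogs of the channel subunits were near or at 0. *Kcnj8* (Kir6.1) was listed at 0 in all samples and *Abcc9* (SUR2) reached at most 0.136 FPKM.

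For each member that passed the F-test, the 3 genes nearest in pattern, members left out, were found by the root mean square difference of log2(FPKM + 1), each gene centred on its own mean, over the 15 samples, as a description with no test. For *Slc2a2* these were *Ucn3* (0.620), *Bace2* (0.782) and *Nupr1* (0.788). For *G6pc2* they were *Ero1lb* (0.771), *Prlr* (1.13) and *Tmem215* (1.22), with *Ero1lb*, an endoplasmic reticulum oxidase gene, at 14.9, 628 and 5.80 FPKM in alpha, beta and delta cells. For *Slc2a1* they were *Pdxk* (0.212), *Stim1* (0.286) and *Rap1gap2* (0.296). For *Slc2a3* they were *Kcnk1* (0.436), *Rbms3* (0.471) and *Tst* (0.473), and *Tst* was at 3.52, 0.0243 and 7.58 FPKM in alpha, beta and delta cells. For *Kcnj11* they were *Baiap2l2* (0.262), *Repin1* (0.298) and *Zfp319* (0.332).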

How the data were processed

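The authors aligned single-end reads to the mouse genome GRCm38 and deposited FPKM values per gene from Cufflinks, 1 column for each of the 15 samples. The submitters' processing notes name TopHat2 2.0.8, Cufflinks 2.2.1 and edgeR, and the study's methods name another TopHat version. Read counts, on which edgeR was run, were not analysed here, and FPKM were tested on the log2(FPKM + 1) scale with limma 3.58.1 in R 4.3.3 (lmFit, eBayes with trend). All 15 samples entered the fit without a covariate, with Benjamini-Hochberg adjustment over the 14405 genes with a mean above 1 FPKM in at least 1 cell type and a threshold of 0.05. The 7 members, the gene lists and the limit of 50000 that splits the ribosomal sets were chosen with earlier results of these data known. The genes named are the members, each list gene that passed in at least 1 comparison, *Hk1*, *Hk2*, *G6pc*, *Slc37a4*, *Kcnj8* and *Abcc9*, and the 3 genes nearest in pattern to each member that passed the F-test. *Slc2a4*, *Slc2a5* and *Adpgk* were named after their values were seen, and cell type markers are given beside members. Some genes on the lists are not reported here.

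The files give no read totals. Steps of single reads in FPKM values of single-transcript genes were resolved in 6 samples, at 7.5 to 30.6 M reads. The depth of the other 9, all beta cell samples among them, is unknown, so no limit of detection is given, and the text calls a gene without signal listed at 0. Gene positions are from GENCODE M21 (GRCm38), which held 36341 of the 38283 identifiers. Shares, ratios and figures were made with Python 3.11.15, numpy 2.4.6, pandas 2.3.3 and matplotlib 3.10.9. Alternatives were another filter on low values or none, another pseudocount, other scalings, the ribosomal set as a covariate or a restriction, fits of only the cell types compared, a replicate block and leaving out each sample.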

Additional observations from a re-analysis of the deposited data

Results flagged for a closer look

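Within cell types, 39 groups of values were searched for a sample whose gap to its nearest neighbour was a large part of the group's range (Dixon's criterion at the 95% level). It marked 4 of the groups, and chance alone marks about 1 in 20, or 1.95 of 39. Shares, ratios and sums were built from the same levels, so the marks are not independent of each other.

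Delta sample 2 stood out in 3 of the 4. Its *Slc2a3* level of 14.6 FPKM was above the 6.10 to 8.33 FPKM of the other delta cell samples. Its *Slc2a3* share of the summed *Slc2a1*, *Slc2a2* and *Slc2a3* FPKM, built from that level, was 59.5%, against 39.1% to 46.2% in the others. Its *Abcc8* level of 38.1 FPKM was below their 86.6 to 133 FPKM. This sample belongs to the higher ribosomal set together with delta sample 1, in which *Abcc8* was at 86.6 and *Slc2a3* at 6.10 FPKM.

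Alpha sample 3 had a *Slc2a3* share of 10.6%, against 40.3% to 47.1% in the other alpha cell samples.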

How the results depend on the processing

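The calls of *Slc2a2* and *G6pc2* in beta against both other cells, of *Slc2a3* and *Slc2a1* in delta against beta cells and the F-test calls of these 4 genes held under every alternative run. Leaving out 1 sample at a time gave log2 differences for beta minus alpha of 5.93 to 6.51 (*Slc2a2*), 4.51 to 5.56 (*G6pc2*) and -2.15 to -1.65 (*Slc2a3*). For delta minus beta they were -6.16 to -5.59 (*Slc2a2*), -7.46 to -6.40 (*G6pc2*), 2.98 to 3.21 (*Slc2a3*), 1.38 to 1.70 (*Slc2a1*), 1.29 to 1.49 (*Kcnj11*), 1.21 to 1.72 (*Abcc8*) and 0.78 to 1.14 (*G6pc3*). For delta minus alpha they were 1.18 to 1.41 (*Slc2a1*), 0.99 to 1.49 (*Slc2a3*), -2.15 to -1.59 (*G6pc2*), 0.91 to 1.35 (*Kcnj11*), 1.09 to 1.74 (*Abcc8*) and 0.00 to 0.23 (*G6pc3*). *Abcc8* in beta minus alpha ran from -0.34 to 0.31, and was -0.21 with the ribosomal set as covariate and -1.09 within the lower set. *G6pc3* in delta minus alpha was -0.07 after median-ratio scaling and -0.10 within the lower set. F-test adjusted p ran from 0.0268 to 0.135 for *Abcc8* and from 0.00695 to 0.0641 for *Kcnj11*, which lost its call without beta sample 1 or 4 or without delta sample 1, 2, 3, 5 or 6.

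For *Kcnj11* in delta minus beta, median-ratio scaling gave 0.96 (F-test adjusted p = 0.179) and quantile normalisation 1.15 (0.103). For *Slc2a3* in delta minus alpha, the adjusted p was 0.0606 with a pseudocount of 0.1 (1.77), 0.0591 with a mean above 5 FPKM (1.34), 0.0551 with no filter (1.34), 0.0532 with only the 2 cell types (1.34) and 0.0917 within the lower set (1.01). In beta minus alpha with only the 2 cell types it was 0.0615 (-1.79). *Slc2a1* in delta minus alpha was 0.99 within the lower set. *G6pc2* in delta minus alpha was called after median-ratio scaling (-2.05), quantile normalisation (-1.95) and with only the 2 cell types (-1.89). *G6pc3* in delta minus beta was called with no filter (1.02), with the set as covariate (1.00) and with no variance trend (1.02, adjusted p = 0.0381). *Abcc8* in delta minus beta was called with the set as covariate (1.48, F-test adjusted p = 0.0371) and within the lower set (2.04, F-test adjusted p = 0.00973), and its F-test with no variance trend gave 0.0489. The log2 ratio of mean FPKM was 7.0 and -6.54 (*Slc2a2*, beta minus alpha and delta minus beta), -6.52 and 8.02 (*Slc2a3*) and 1.85 (*Slc2a1*, delta minus beta). The causes were not tested, other than that a ratio of means has no pseudocount.

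Genes called numbered 1104 for beta minus alpha, and 2072 after median-ratio scaling, 2056 after quantile normalisation, 407 with only the 2 cell types and 651 (without beta sample 4) to 1698 (without beta sample 2) with a sample left out. They numbered 981 for delta minus alpha, and 518 with a mean above 5 FPKM and 629 within the lower set (792 to 1115 with a sample left out). They numbered 2114 for delta minus beta and 1319 with a mean above 5 FPKM (1420 to 2643), and 2301 by F-test and 1450 with a mean above 5 FPKM (1694 to 2884). Median-ratio scaling moved the median of all genes by 0.13, -0.12 and -0.28 in the 3 comparisons and the share of calls that were higher from 37.0% to 52.7%, 78.3% to 67.9% and 79.6% to 51.5%. Quantile normalisation moved that share to 48.1%, 61.4% and 53.1%.

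Whether samples with equal numbers came from 1 sort is not given in the sources used here. Over 13 such pairs, 5 had correlated deviations above 0.1 (mean r 0.0762, from -0.152 to 0.281). With the replicate number as a block, *Kcnj11* in delta minus beta was 1.20 (adjusted p = 0.0786; F-test 0.0983) and no other call of a member changed. With the block and only alpha and beta samples 1 to 4, an alternative chosen after seeing the data, 201 genes were called and *Slc2a3* was -1.67 (adjusted p = 0.156). Unknown depth in 9 samples limits what the low values of *Slc2a3*, *Hk1* and *Slc5a1* can show.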
